A study of Mus musculus with 43 samples.

Results

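The stathmin and tubulin isotype genes are 10 genes picked by symbol from a table of 22462 genes: Stmn1, Stmn2, Stmn3 and Stmn4, the alpha-tubulin genes Tuba1a, Tuba1b, Tuba1c, Tuba3a and Tuba3b, and the beta-tubulin gene Tubb3. They were chosen with their control and knockout levels in view, so these levels, and any call on them, are given as a description and not as a test. The levels came from RNA-seq of E14 cells, a mouse embryonic stem cell line grown with LIF and serum on gelatin, in 3 libraries labelled Control and 3 labelled MTF2 KO. MTF2 is a Polycomb-like subunit of PRC2, the complex that methylates histone H3 at lysine 27. The sources used here do not say how the knockout was made or whether it is 1 clone. The series also held 36 ChIP-seq samples (MTF2, SUZ12 and H3K27me3 in Control, MTF2 KO and the wild-type and K339A rescue cells) and 1 input sample, which were not analysed here.

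Microtubules are polymers of alpha- and beta-tubulin heterodimers. Mammals carry several genes for each subunit: the proteins are alike through most of their length and differ mainly in the tail, and some genes are used in most cells while others are used mainly in neurons or testis. Stathmins bind free tubulin heterodimers and favour the shortening of microtubules, and phosphorylation weakens that binding. Stmn1 is the widely expressed, cytosolic form, while Stmn2 (SCG10), Stmn3 (SCLIP) and Stmn4 (RB3) are membrane-bound forms known from neurons.

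Each value is FPKM (fragments scaled to transcript length and library size), which can be set side by side between genes. The authors' deposited table gives 1 pooled value per gene and group, so the spread between the libraries of a group is not known here and no SD or n stands beside a value. Neighbours in an order of levels were therefore not tested against each other. Ratios are log2((knockout FPKM + 0.5)/(control FPKM + 0.5)) unless named otherwise, and a gene is called where the authors' deposited table has status OK and a q (Cuffdiff's adjusted p) at or under 0.05. Mtf2 itself had 74.3 FPKM in the control group and 44.7 in the knockout group (q = 0.0496 in the authors' deposited table). Library depth is unknown.

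In control cells Tubb3 was highest at 145 FPKM, followed by Stmn2 at 126, Stmn1 at 112, Tuba3a at 59.2, Tuba1b at 33.4, Tuba1a at 32.3, Tuba1c at 24.6, Stmn3 at 8.36 and Tuba3b at 1.40 FPKM, and Stmn4 was listed at 0. In knockout cells the order was Stmn1 (158 FPKM), Tubb3 (110), Tuba1b (39.4), Tuba1c (29.8), Tuba1a (22.0), Stmn3 (17.0), Stmn2 (11.7), Tuba3a (5.86) and Tuba3b (0.358 FPKM), again with Stmn4 listed at 0. The order therefore differs mainly through Stmn2 and Tuba3a, which dropped from the second and the fourth place to the seventh and the eighth.

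**Figure D1:**
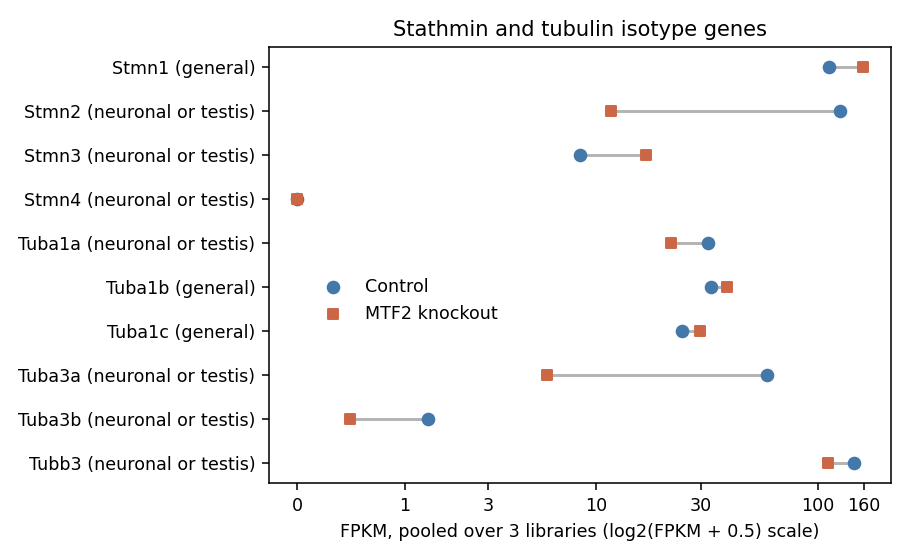
Pooled FPKM of the 10 genes in control cells (circles) and MTF2 knockout cells (squares) on a log2(FPKM + 0.5) axis, 1 value per group with no error available. Stmn2 (126 and 11.7 FPKM) and Tuba3a (59.2 and 5.86 FPKM) have the longest lines, and Stmn4 is at 0 in both groups.

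Of the 10 genes, 9 were tested by the authors and 1, Stmn4, was not. 2 of the 9 were called lower (Stmn2 and Tuba3a) and 0 higher, while 12.9% of the 11362 tested genes were called, 6.9% higher and 6.03% lower. As the genes were chosen on this contrast, nothing is read from that count. Among the 6 tested genes with a neuronal or testis use, 5 had a ratio below 0 and 1 (Stmn3) above, from -3.37 to 0.98 with a median of -0.84. The 3 general genes (Stmn1, Tuba1b and Tuba1c) all had ratios above 0, from 0.23 to 0.49 with a median of 0.27, and none was called. Outside the 10, Tubb5, the general beta-tubulin, had a ratio of -0.30, Tubb4b of -0.16 and Tubb6 of 0.09, none of them called. The sign of the chosen general genes therefore does not hold for general tubulins at large. The median over all tested genes was -0.0035.

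**Figure D2:**
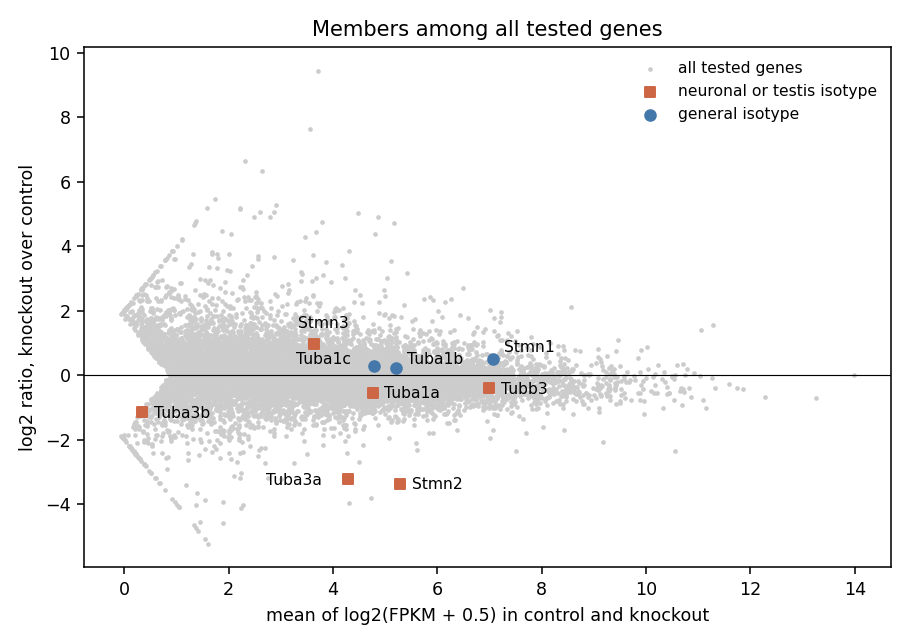
Log2 ratio of knockout over control (vertical) against the mean log2(FPKM + 0.5) of both groups (horizontal) for all 11362 tested genes (grey) and the 9 tested members (squares, neuronal or testis use; circles, general use). Stmn2 (-3.37) and Tuba3a (-3.23) lie well below the cloud at their level, and the 3 general genes lie between 0.23 and 0.49.

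Among the stathmins, Stmn2 had the largest difference. Stmn2 (chromosome 3, 8509360 to 8561606, mm10), which supports axon growth and repair in neurons, had 126 FPKM in control cells and 11.7 in knockout cells, 10.7-fold lower. Its log2 ratio was -3.37, with q = 0.0012 in the authors' deposited table, the smallest q there, which 472 genes share. In control cells Stmn2 was higher than 92.8% of tested genes, and in knockout cells higher than 49.6%. In the control group its level was thus close to that of the general gene Stmn1, and in the knockout group it was far below it (11.7 against 158 FPKM).

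Stmn1 (chromosome 4, 134468320 to 134473843), the general stathmin, had 112 FPKM in control cells and 158 in knockout cells. The log2 ratio of 0.49 was not called (q = 0.152 in the authors' deposited table). Stmn3 (chromosome 2, 181306459 to 181314500), a neuronal relative of Stmn2, stood at 8.36 and 17.0 FPKM, a log2 ratio of 0.98 that was not called either (q = 0.102 in the authors' deposited table). The neuronal stathmins thus did not share a direction in these values: Stmn2 was lower, Stmn3 had the higher value in knockout cells, and Stmn4 (chromosome 14, 66344304 to 66361680) was listed at 0 in both. A value of exactly 0 from Cuffdiff may be an estimate that failed, so it is given only as listed.

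Summed over the 4 stathmin genes, the control group had 246 FPKM and the knockout group 187. Stmn2 made up 51.0% of that sum in control and 6.28% in knockout cells, while Stmn1 made up 45.6% and 84.6%, and Stmn3 3.40% and 9.09%. Without Stmn2 the sums were 121 and 175 FPKM. In these bulk samples, fewer cells with a transcript and less of it per cell cannot be told apart.

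The alpha-tubulin genes held the other large difference. Tuba3a (chromosome 6, 125278274 to 125286042), an alpha-tubulin gene known for its expression in testis, had 59.2 FPKM in control cells and 5.86 in knockout cells, 10.1-fold lower. The log2 ratio was -3.23 (q = 0.0012 in the authors' deposited table). In control cells it had the highest FPKM of the alpha-tubulin genes in the table. That rank depends on how reads that match more than 1 of these genes were counted. Tuba3b (chromosome 6, 145615757 to 145621479), the near-copy of Tuba3a, was far lower, with 1.40 FPKM in control cells and 0.358 in knockout cells. The log2 ratio of -1.14 was not called (q = 0.556 in the authors' deposited table). The ratio of Tuba3b rests on low values and ran from -1.71 to -0.82 over the pseudocounts and scalings tried.

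Tuba3a and Tuba3b lie 20.3 Mb apart, and their upstream sequences are related. The 250 bases before each RefSeq start (RefSeq on GRCm38.p6) were compared for the 7 of the 10 genes with such a sequence. Tuba3a and Tuba3b shared an identical run of 33 bases, from 142 to 110 bases before the Tuba3a start and from 129 to 97 before the Tuba3b start. The longest shared run of the 20 other pairs was 7 to 11 bases. Both hold the letters CCAAT, a common promoter element, at matching places: 102 and 64 bases before the Tuba3a start and 89 and 51 before the Tuba3b start. Tuba3a has 1 more, 13 bases before its start. The authors' locus entry of Tuba3b begins at 145615757, ahead of its RefSeq start at 145615963. The shared run and both matching CCAAT of Tuba3b thus lie inside that entry, so they may not be upstream of its transcript. Searched on both strands, CCAAT occurs at least once in 33.8% of the 32851 RefSeq windows of this length, at least 2 times in 10.1% and at least 3 times in 2.79%. The stretches around both matching places are shown because the 2 genes are the testis pair and differ in level; capitals mark bases identical in both genes, 24 of 30 in the first stretch (chr6:125286164-125286193, minus strand, and chr6:145615864-145615893, plus strand) and 23 of 30 in the second (chr6:125286126-125286155, minus strand, and chr6:145615902-145615931, plus strand).
Tuba3a, first stretch: AAAgccACATCCAATCAGAAAGTgCCAgCa
Tuba3b, first stretch: AAAtttACATCCAATCAGAAAGTaCCAcCg
Tuba3a, second stretch: TGAGCCACATCCAATCattAgtgGGAtGTG
Tuba3b, second stretch: TGAGCCACATCCAATCgcaAaaaGGAcGTG

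The whole upstream window of Tuba3a (chr6:125286082-125286331, minus strand) follows, since this gene had the largest difference among the tubulins. Below it stands that of Tuba1a (chr15:98953552-98953751, minus strand), the neuronal alpha-tubulin gene with a much smaller difference, up to the edge of its locus entry. CCAAT is in capitals in both.
Tuba3a: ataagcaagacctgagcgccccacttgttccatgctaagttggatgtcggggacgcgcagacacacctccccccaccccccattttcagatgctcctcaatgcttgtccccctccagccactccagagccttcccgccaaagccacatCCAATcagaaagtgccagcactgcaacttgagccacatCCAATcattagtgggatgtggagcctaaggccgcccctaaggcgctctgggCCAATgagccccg
Tuba1a: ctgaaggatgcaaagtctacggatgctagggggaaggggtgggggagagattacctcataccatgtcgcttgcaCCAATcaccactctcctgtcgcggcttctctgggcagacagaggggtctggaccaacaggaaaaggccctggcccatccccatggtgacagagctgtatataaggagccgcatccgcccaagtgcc
Tuba1a has CCAAT 1 time, 176 bases before its start. A match says only that these letters are present.

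The 3 genes of the Tuba1 cluster lie next to each other on chromosome 15, with 15.5 kb between Tuba1b and Tuba1a and 76.4 kb between Tuba1a and Tuba1c. Tuba1a (98949841 to 98953551), the main alpha-tubulin of the developing brain, had 32.3 FPKM in control cells and 22.0 in knockout cells, a log2 ratio of -0.54. Tuba1b (98931425 to 98934565), used in most cells, stood at 33.4 and 39.4 FPKM, a log2 ratio of 0.23. Tuba1c (99029891 to 99038105), also of general use, stood at 24.6 and 29.8 FPKM, a log2 ratio of 0.27. None of the 3 was called, with q of 0.205, 0.605 and 0.547 in the authors' deposited table. Tuba1a and Tuba1b were thus at nearly the same level in control cells and further apart in knockout cells, and the difference between them was not tested. The coding sequences of these genes, and those of Tuba3a and Tuba3b, are close to identical. The sources used here do not say how reads that match more than 1 of them were shared out, so the split within each group is uncertain.

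Tuba4a, an alpha-tubulin gene outside the chosen 10, was the only other tubulin gene called. It rose from 40.9 to 66.4 FPKM (log2 ratio 0.69, q = 0.0385 in the authors' deposited table) and shares its locus entry with 1 other gene. Tuba4a was no longer called at a q of 0.01, with a 2-fold minimum, or when p was taken from the Cuffdiff statistic as a normal score. Over the 8 alpha-tubulin genes, the sum was 192 FPKM in the control group and 164 in the knockout group. Tuba3a made up 30.8% of the control sum and 3.57% of the knockout sum, and Tuba4a 21.3% and 40.5%. Tuba1b made up 17.4% and 24.0%, Tuba1a 16.8% and 13.5%, and Tuba1c 12.8% and 18.2%. Without Tuba3a the sums were 133 and 158 FPKM. The 8 beta-tubulin genes summed to 1212 and 979 FPKM. Whether reads that match several alpha-tubulin genes were lost is not known, so the alpha-tubulin sums and shares are uncertain. Tuba8 (0.440 FPKM in control, listed at 0 in knockout cells) and Tubal3 (listed at 0 in both) were not tested.

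**Figure D3:**
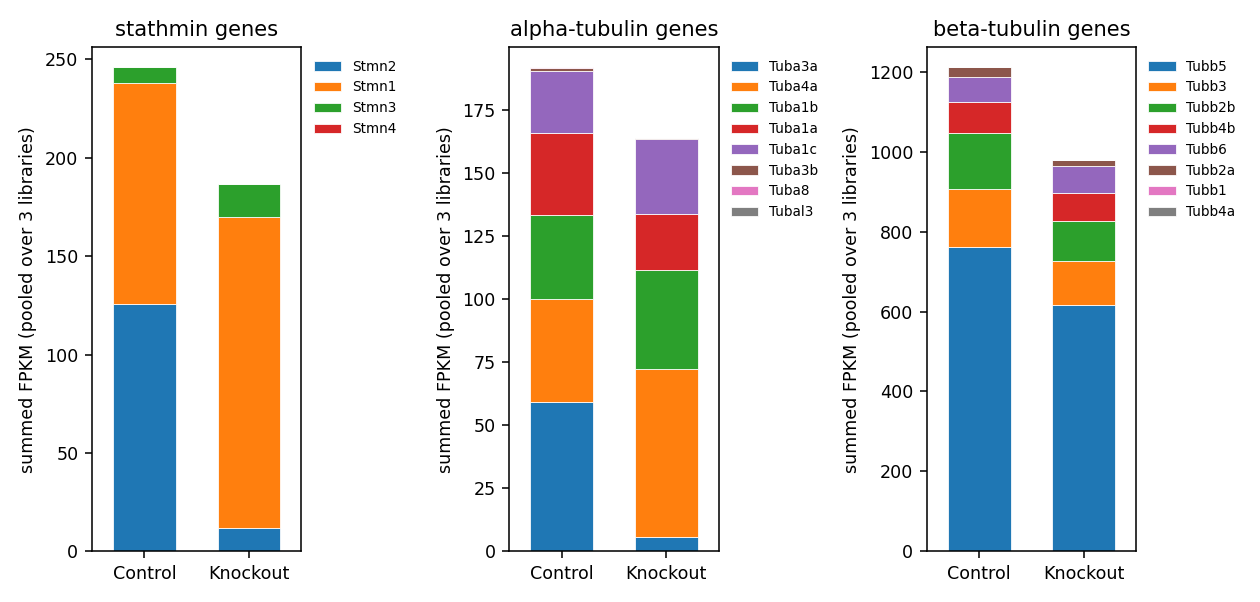
Stacked bars of pooled FPKM for the 4 stathmin, 8 alpha-tubulin and 8 beta-tubulin genes in control and knockout cells, each axis starting at 0. Stmn2 goes from 51.0% to 6.28% of the stathmin sum and Tuba3a from 30.8% to 3.57% of the alpha-tubulin sum, while Tubb3 stays near 12.0% and 11.3% of the beta-tubulin sum.

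Tubb3, the beta-tubulin gene used as a marker of neurons, was abundant in both groups, with 145 FPKM in control cells and 110 in knockout cells. The log2 ratio of -0.39 was not called (q = 0.908 in the authors' deposited table). It made up 12.0% of the summed FPKM of the 8 beta-tubulin genes in control and 11.3% in knockout cells, where the sums were 1212 and 979 FPKM. Tubb5, the general beta-tubulin, made up 62.7% and 62.9% (760 and 616 FPKM). Tubb2b (141 and 101 FPKM), Tubb2a (23.6 and 14.7 FPKM), Tubb4b (78.2 and 70.0 FPKM) and Tubb6 (62.6 and 66.6 FPKM) were not called, and Tubb1 (0.890 FPKM in control, listed at 0 in knockout cells) and Tubb4a (0.602 and 0.919 FPKM) were not tested. The largest shift in share among the beta-tubulins was that of Tubb6, from 5.17% to 6.80%, far smaller than those of Stmn2 and Tuba3a in their families.

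The authors' test of Tubb3 stands apart from that of the other members. Its locus entry spans 4.44 Mb of chromosome 8 (119910360 to 124345722) and is shared by 74 genes, while RefSeq on GRCm38.p6 places Tubb3 at 123411553 to 123422015. The other 9 members each have an entry of their own. Of the 58 tested genes in the Tubb3 entry, 0 were called by Cuffdiff and 0 had an unadjusted p under 0.05, and the largest absolute test statistic was 0.157 in the authors' deposited table. In entries of 1 gene, 14.5% of 9042 tested genes were called. The 58 genes included 9 whose deposited fold change was at least 2-fold, such as Cyba, a subunit of the NADPH oxidase, at 25.4 and 86.0 FPKM (test statistic 0.0697 in the authors' deposited table), and Galnt2 at 29.2 and 10.7 FPKM (test statistic -0.150 in the authors' deposited table). Both were named after their values were seen. Of the genes with a deposited 2-fold difference in entries of 1 gene, 43.1% of 1725 were called. Tubb3 thus shares its missing call with every tested gene of its entry, whatever their fold change.

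**Figure D4:**
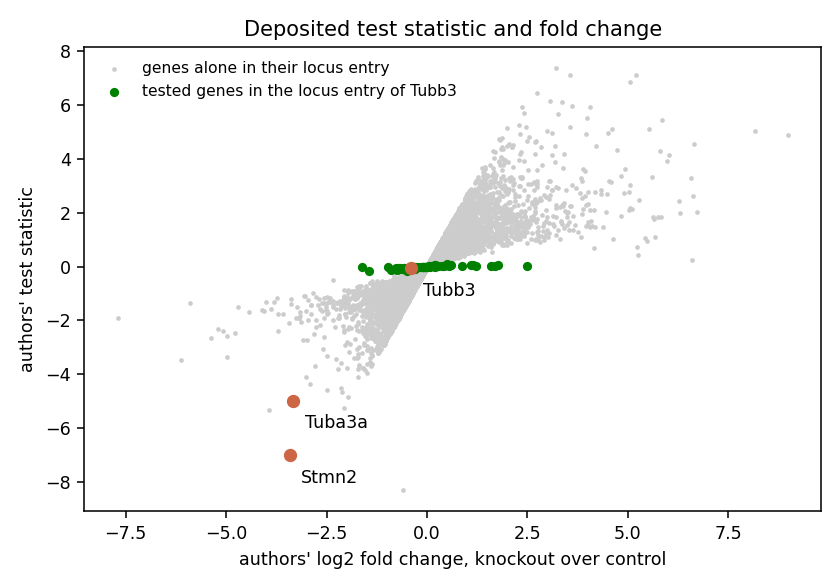
The authors' test statistic (vertical) against their log2 fold change of knockout over control (horizontal) for genes alone in their locus entry (grey), the 58 tested genes in the entry of Tubb3 (small dots along 0) and Stmn2, Tuba3a and Tubb3 (large dots). Genes in the Tubb3 entry have statistics of at most 0.157 in size at any fold change, while Stmn2 is at -7.02 and Tuba3a at -4.98.

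The 30 bases around 1 motif in the Tubb3 upstream window (chr8:123411422-123411451, plus strand) are shown because Tubb3 and the neuronal stathmins are textbook targets of the repressor REST. REST binds a long element whose first part holds TCAGCACC; in capitals is this motif, here on the opposite strand.
Tubb3: tctcggtgccGGTGCTGAtgctgcagagcc
Searched on both strands, TCAGCACC is in 1.32% of the windows of this length. It was in none of the other 6 upstream windows, Stmn3 included, which says only that these letters are not there.

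Since MTF2 is known to bind unmethylated CpG-rich DNA, the CpG dinucleotides of the same windows were counted. Tuba1b had 35, a number reached by 2.97% of windows, Tubb3 had 21 (16.3%), Tuba3b 14 (29.4%), Tuba1a 11 (35.6%), Tuba3a 8 (43.0%), Tuba1c 4 (62.2%) and Stmn3 3 (71.0%), with a median of 6 over all windows. Stmn2, the other gene called, had no such window. The authors' locus entries reach to 98934565 at Tuba1b and begin at 145615757 at Tuba3b. Most of these 2 windows therefore lies inside the entries, and a smaller part of the Tuba1a window does too. The part of CpG number in the levels was not tested. The window of Stmn3 (chr2:181314501-181314750, minus strand), the poorest of the 7, is shown with CpG in capitals.
Stmn3: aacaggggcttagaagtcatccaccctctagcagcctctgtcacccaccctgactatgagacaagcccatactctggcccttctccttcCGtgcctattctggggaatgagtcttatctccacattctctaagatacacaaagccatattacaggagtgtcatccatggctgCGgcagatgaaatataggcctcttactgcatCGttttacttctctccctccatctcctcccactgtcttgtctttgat

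The neighbours of each gene were also compared, as chromosome 14 differed as a whole between the groups: its 389 expressed genes had a median log2 ratio of 0.71, while the medians of the other autosomes and X lay between -0.09 and 0.11. Around Stmn2, 28 expressed genes (FPKM of 1 or more in a group, up to 25 on each side) had a median log2 ratio of 0.04. Around Tuba3a the median of 50 genes was -0.03, around Tuba3b -0.16 (43 genes), around Stmn1 -0.11, around Stmn3 -0.03, around the Tuba1 cluster -0.06 and around Tubb3 -0.03. Stmn2 and Tuba3a therefore stood 3 log2 units or more below the median of these neighbours. The neighbours were spread widely, over 21.6 Mb for Stmn2 and 9.28 Mb for Tuba3a. Stmn4 was different: its 50 neighbours on chromosome 14 had a median log2 ratio of 1.59 (interquartile range 1.01 to 2.18), 31 of them (62.0%) were called higher and 0 lower, against 6.9% higher over all tested genes. Stmn4 was listed at 0 in both groups inside that raised stretch.

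Among the genes with the nearest pair of levels, measured as the distance in log2(FPKM + 0.5) of the 2 groups, Stmn2 was closest to Rpl10l (99.2 and 6.54 FPKM, distance 0.87), Dnmt3a (100.4 and 22.7 FPKM, distance 0.98) and Mospd3 (65.5 and 16.5 FPKM, distance 1.05). Tuba3a was closest to Nnat (77.6 and 4.50 FPKM, distance 0.52), Pkp2 (44.1 and 7.80 FPKM, distance 0.57) and Rpl10l (distance 0.75). These 5 genes were all called lower, where 6.03% of all tested genes were. That follows largely from picking them for levels close to those of 2 genes called lower. Likeness over 2 pooled values says no more than that the levels are close.

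Markers of the cell types in which these isotypes are known were summed in each group. The lists were chosen with earlier results of these data known. Of 21 neuron and neural progenitor markers, 11 were tested, 1 was called higher (Nefl, a neurofilament gene, 4.02 to 21.1 FPKM) and 0 lower, with 48.3 summed FPKM in control and 62.4 in knockout cells. The rise of Nefl alone was larger than the rise of that sum, and 5 of the 11 tested markers had a ratio below 0. Neurog1, Neurog2 and Slc17a6, named after their values were seen, were listed at 0 in both groups. Nefl lies 1740 kb from Stmn4, within the raised stretch of chromosome 14. Nefm, named after its values were seen, shares the locus entry of Nefl and was not called (3.69 and 1.58 FPKM). Of 18 germ cell and testis markers, 9 were tested, 5 were called lower and 0 higher, where 6.03% of all tested genes were called lower. The summed level of the 18 was 208 FPKM in the control group and 48.1 in the knockout group. Rpl10l alone made the largest part of that drop. Stra8 (12.1 FPKM in control) and Rhox13 (6.68 FPKM) were listed at 0 in knockout cells, and Rpl10l fell as given above. The other called markers, named after their values were seen, were Dmrt1 (49.4 to 16.6 FPKM) and Kit (22.1 to 11.6 FPKM). Prm2 and Tnp1, which mark late sperm cells and were also named after their values were seen, were listed at 0 in both groups. The part of these markers in the levels of Stmn2 and Tuba3a was not tested.

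Markers of other types that such a culture could hold gave these values. These lists too were chosen with earlier results known. Over all tested genes, 6.9% were called higher and 6.03% lower. Of 13 primitive endoderm markers, 10 were called higher and 0 lower, with 232 summed FPKM in control and 1436 in knockout cells, as for Dab2 (0.526 to 30.3 FPKM) and Gata4 (2.17 to 71.7 FPKM). Gata4 and a second called marker, Sox7 (0.367 to 11.3 FPKM, named after its values were seen), lie within the raised stretch of chromosome 14 around Stmn4. None of these markers was listed at 0 in both groups. Of 10 ES cell markers, Tdgf1 was called higher (41.3 to 70.6 FPKM) and Utf1 lower (352 to 215 FPKM), with sums of 5645 and 5438 FPKM. Of 10 fibroblast markers, 3 were tested and Fbln1 was called lower (38.9 to 18.5 FPKM), with sums of 46.4 and 34.6 FPKM. The fall of Fbln1 alone was larger than the fall of that sum, and only 1 of the 3 tested had a ratio below 0. Col3a1, Dcn and Twist2, named after their values were seen, were listed at 0 in both groups. The part of these markers too was not tested.

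The wider microtubule machinery was described with 8 lists of 164 genes in the table, of which 136 were tested. Of these, 12 were called higher and 5 lower, that is 12.5% against 12.9% of all tested genes, a share near that of the whole table. Their median log2 ratio was 0.08, against -0.0035 over all tested genes. The other tubulin genes had 9 tested members with 1 higher, Tuba4a, and 0 lower. Their remaining tested members were Tubg1 (48.7 and 47.5 FPKM), Tubd1 (1.52 and 3.46 FPKM) and Tube1 (5.77 and 5.20 FPKM), of the gamma, delta and epsilon classes at centrosomes, beside the beta-tubulins above. Tubg2 (0.333 and 1.14 FPKM) was not tested.

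Tubulin folding genes gave no call. Of the 22 tested chaperonin, prefoldin and cofactor genes, 0 were called by Cuffdiff, 3 had an unadjusted p under 0.05, and the median log2 ratio was 0.11. The list of enzymes that modify tubulin, with some of their partner subunits, had the lowest median of the microtubule lists, -0.72 (interquartile range -0.86 to -0.15). That rank was seen only after the lists were compared. Of the 17 tested members of this list, 13 had a ratio below 0, beside 5703 of all 11362 tested genes. Of the 17, 1 was called lower: Ttll12, of the tubulin tyrosine ligase-like family, fell from 48.4 to 24.7 FPKM. 2 were called higher: Agtpbp1, which trims glutamates from tubulin tails, rose from 2.56 to 7.97 FPKM, and Sirt2, a tubulin deacetylase, from 13.5 to 30.6 FPKM. The other 14 were not called. Among all tested genes, 6.9% were called higher and 6.03% lower.

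Of 14 tested microtubule-associated proteins of neurons, 11 had no call, with a median log2 ratio of 0.014 over the list. 2 were called higher, Camsap3, which binds minus ends (5.23 to 11.0 FPKM), and Dpysl5, a collapsin response mediator (2.79 to 5.46 FPKM). Only 1 was called lower, Map6, which stabilises microtubules (19.1 to 7.45 FPKM). Other Camsap genes were placed in the general list, so the neuronal label of Camsap3 is not firm. Both higher calls were lost at a q of 0.01, and all 3 calls with the normal p. Of 27 tested general associated proteins and end binders, 4 were called higher and 1 lower, where 6.9% of all tested genes were called higher and 6.03% lower. Clip1, a plus-end protein, rose from 2.65 to 6.85 FPKM, and Prc1, which bundles the spindle midzone, from 47.4 to 99.3 FPKM. Map7, which recruits kinesin, fell from 70.1 to 33.3 FPKM, a call lost at a q of 0.01. The other 2 higher genes, named after their values were seen, were Map7d1 (24.3 to 42.8 FPKM) and Tacc1 (3.93 to 8.41 FPKM).

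Among the depolymerising kinesins and severing enzymes, 1 of 13 tested was called lower, the katanin-like gene Katnal2, from 12.8 to 2.16 FPKM, and 0 higher. In the gamma-tubulin ring list, 3 of 19 were called higher and 0 lower: Haus4, an augmin subunit on chromosome 14 (5.39 to 17.4 FPKM), Nedd1, which brings the ring complex to centrosomes (1.93 to 5.26 FPKM), and, named after its value was seen, the ring subunit Tubgcp3 (3.51 to 7.48 FPKM). Among 15 tested kinases and phosphatases that act on stathmin phosphorylation, Aurkb, a mitotic kinase, was called lower (36.1 to 21.2 FPKM) and 0 higher. The median log2 ratios of these last 3 lists were 0.13, 0.17 and 0.05.

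**Figure D5:**
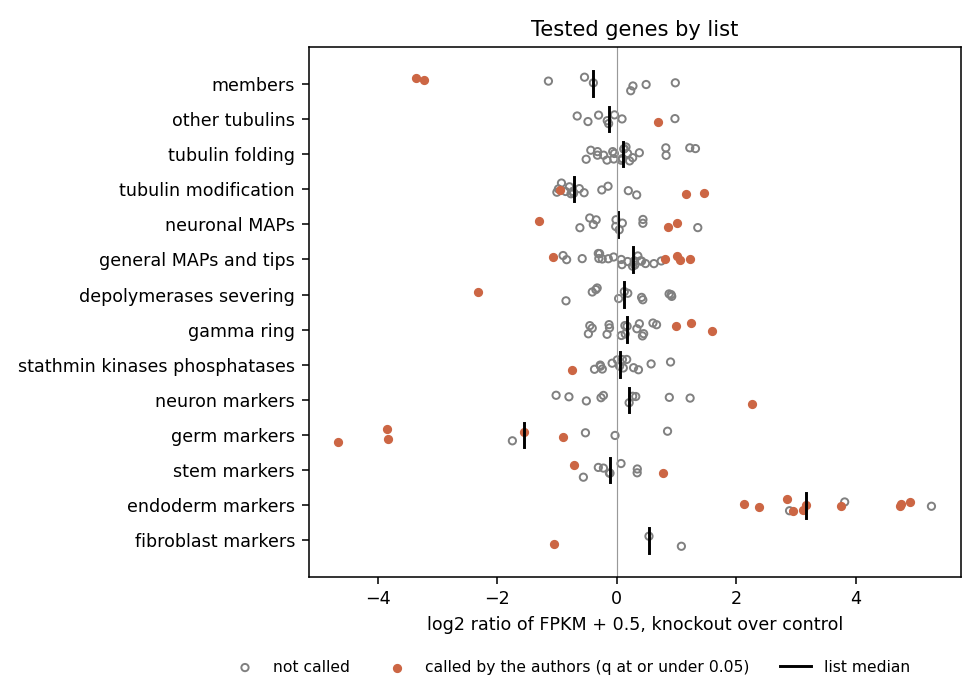
Log2 ratio of knockout over control for each tested gene of the members, the 8 microtubule lists and 5 cell type marker lists (1 point per gene, filled where the authors' q is at or under 0.05, vertical bar at the list median). Stmn2 and Tuba3a lie left of -3, tubulin modification has the lowest median of the microtubule lists (-0.72), and the endoderm markers lie to the right with a median of 3.16.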

How the data were processed

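Per the labels' protocols, libraries were made from mRNA isolated with oligo-dT beads out of Trizol-extracted RNA. The submitters' processing notes list TopHat2 2.1.0, Cuffdiff 2.2.1.3, Bowtie 1.0 and deepTools without their roles, and 2 builds, mm10 and mm9. Per the file headers, the FPKM values are the authors' own, pooled over the 3 libraries of a group. How libraries were scaled to each other is not stated in these sources. The log2 fold change (knockout over control, no pseudocount), the test statistic (a score), the p-value and the q-value were deposited by the authors. The q equals a Benjamini-Hochberg adjustment over the 11362 tested genes to within 5.2e-07. Genes with status NOTEST (11098) or FAIL (2) stayed out of tests. No tested gene had an FPKM under 1 in both groups.

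Starts were moved to 1-based. For the 9 members other than Tubb3 they lay within 206 bases of RefSeq on GRCm38.p6, so coordinates are given as mm10. Neighbours were ordered by RefSeq position (21083 genes matched by symbol). RefSeq upstream windows were at hand for 7 members, not for Stmn1, Stmn2 or Stmn4.

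The members and lists were chosen with earlier results of these data known. Named genes followed a rule: all members, all other tubulin genes, per list up to 2 called genes in each direction, by size of the ratio, at FPKM of 1 or more, the 3 nearest genes to each called member, and Mtf2. Other names are marked in the text as named after their values were seen. Computation used Python 3.11.15, pandas 2.3.3 and scipy 1.17.1, and functions were tested on simulated data. No test across replicates was made.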

Additional observations from a re-analysis of the deposited data

How the results depend on the processing

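No paired analysis was possible because the table holds 1 pooled value per group and no values per library, so leaving out a replicate was not possible either. Stmn2 and Tuba3a remained the 2 members called, both lower, at a q of 0.01, with a 2-fold minimum and when p was taken from the deposited statistic as a normal score. Pseudocounts of 0.1 and 1 cannot change the sign of a ratio, and median centring subtracts only the median of -0.0035, so neither checks the signs. The 9 member ratios kept their sign under scaling to summed FPKM (559237 in control, 504845 in knockout cells). That scaling moved the median of all tested genes by 0.14 and the log2 ratio of the alpha-tubulin sums from -0.23 to -0.08. In the microtubule lists together, calls went from 12 higher and 5 lower to 7 and 2 at a q of 0.01, to 8 and 3 with a 2-fold minimum, and to 0 and 0 with that normal p from the Cuffdiff statistic (10 genes with an unadjusted normal p under 0.05), a setting under which 1.09% of all tested genes were called. With 10 neighbours on each side, local medians were 0.19 at Stmn3, -0.27 at Tuba1a, Tuba1b and Tuba1c, and 0.093 at Tuba3a; the cause was not tested. Depth per library is unknown, and Tuba3b is too low for its ratio to be firm.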

Other observations

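The call rate fell with the number of genes that share a locus entry, which bears on Tubb3 and on any other gene in a merged entry. Of 9042 tested genes alone in their entry 14.5% were called, of 2100 in entries of 2 to 4 genes 7.10%, of 129 in entries of 5 to 19 genes 3.88%, and of 91 in the 4 entries of 20 to 74 genes 0, with 0 at an unadjusted Cuffdiff p under 0.05. These 91 include the 58 tested genes of the Tubb3 entry, so the last class is mostly that entry itself. The median absolute log2 fold change in the authors' deposited table was 0.45, 0.46, 0.55 and 0.49 in these classes, while the median absolute test statistic was 0.739, 0.533, 0.470 and 0.0520. This comparison was chosen after seeing the data.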
